A study of Mus musculus with 6 samples.

Results

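The 30 genes described here make and handle cholesterol in prefrontal cortex of mice in which Kmt5b was targeted. They were chosen by gene symbol for their role in the pathway, with earlier results of these data known. All 30 were found among the 54429 rows of the count tables and passed the filter on low counts, which left 24419 genes tested. By role they comprise 18 enzymes of cholesterol synthesis, 5 regulators of the SREBP pathway, 4 genes of sterol export, turnover or esterification and 3 genes that move sterols within the cell. Bulk RNA was sequenced from cortex that had received AAV9, a serotype of adeno-associated virus that delivers genes to brain cells. The 3 GFP libraries came from cortex given AAV9 with green fluorescent protein, and the 3 Kmt5b shRNA libraries from cortex given AAV9 with a short hairpin RNA against Kmt5b, a methyltransferase of histone H4. All animals were 6 to 8 weeks old. The labels name the strain C57BL6/J in every sample, the design text a cross of C57BL/6 with C3H, and the design text counts 2 control mice where the labels give 3 GFP libraries. The promoters that drive GFP and the hairpin are not given in the sources used here.

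Cholesterol is built from acetyl-CoA through mevalonate, isoprenoid and squalene intermediates to lanosterol, and lanosterol is then converted to cholesterol by a series of enzymes of the endoplasmic reticulum. SREBP transcription factors switch these genes on when the membrane is short of sterol: SCAP escorts them to the Golgi for cleavage, and INSIG proteins hold SCAP back when sterol is plentiful. The brain makes its own cholesterol, since lipoproteins of the blood do not pass the blood-brain barrier; oligodendrocytes use much of it for myelin, astrocytes supply neurons, and neurons dispose of surplus sterol through the hydroxylase CYP46A1.

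Library totals lay between 29490771 and 74723284 counts, with GFP replicate 2 the shallowest. Kmt5b itself, which checks the labels, was at 86.5, 79.7 and 80.9 CPM (counts scaled to a common library size) in the GFP group and at 68.5, 80.3 and 63.9 CPM in the Kmt5b shRNA libraries. Kmt5b shRNA replicate 2 thus lay inside the GFP range, and the log2 fold change of Kmt5b was -0.22 ± 0.10 (SE; edgeR adjusted p = 0.303). Every direction below therefore rests on the labels of the libraries. Where nothing states that libraries came from separate animals, p-values measure the spread between libraries only.

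Of the 30 genes, 1 was lower in the Kmt5b shRNA libraries at an edgeR adjusted p under 0.05, the exporter Abcg1, and 0 were higher. Over all genes tested, 5.69% were lower and 2.77% higher by the same rule. The share of called genes among the sterol genes, 1 of 30, was thus not above that of all genes tested. That background depends on the gene set. In a fit of protein-coding genes alone, which holds all 30, 184 of 15778 genes were lower. There too 1 of the 30 was called, Abcg1 (edgeR adjusted p = 0.0157). At an unadjusted p under 0.05, 5 of the 30 lay below 0 and 2 above, where 10.2% and 7.2% of all genes tested did. DESeq2 also called 1 of the 30, against 6.34% of its 39024 genes. The log2 fold change was below 0 in 25 of the 30 genes, against 52.7% of all genes tested, and its median was -0.18 against -0.02 over all genes. For the 18 synthesis enzymes these figures were 17 of 18 below 0 and a median of -0.17, with 0 called. Without GFP replicate 1, 21 of the 30 were below 0, and the enzymes Hmgcs1, Fdft1, Cyp51 and Hsd17b7 turned above 0. Without Kmt5b shRNA replicate 3, 23 of the 30 were below 0, and Hmgcs1, Fdft1 and Hsd17b7 turned above 0. The enzymes also moved together from library to library, as described below, so their directions are not separate observations. In bulk tissue, fewer cells of a type and less RNA per cell cannot be told apart.

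**Figure D1:**
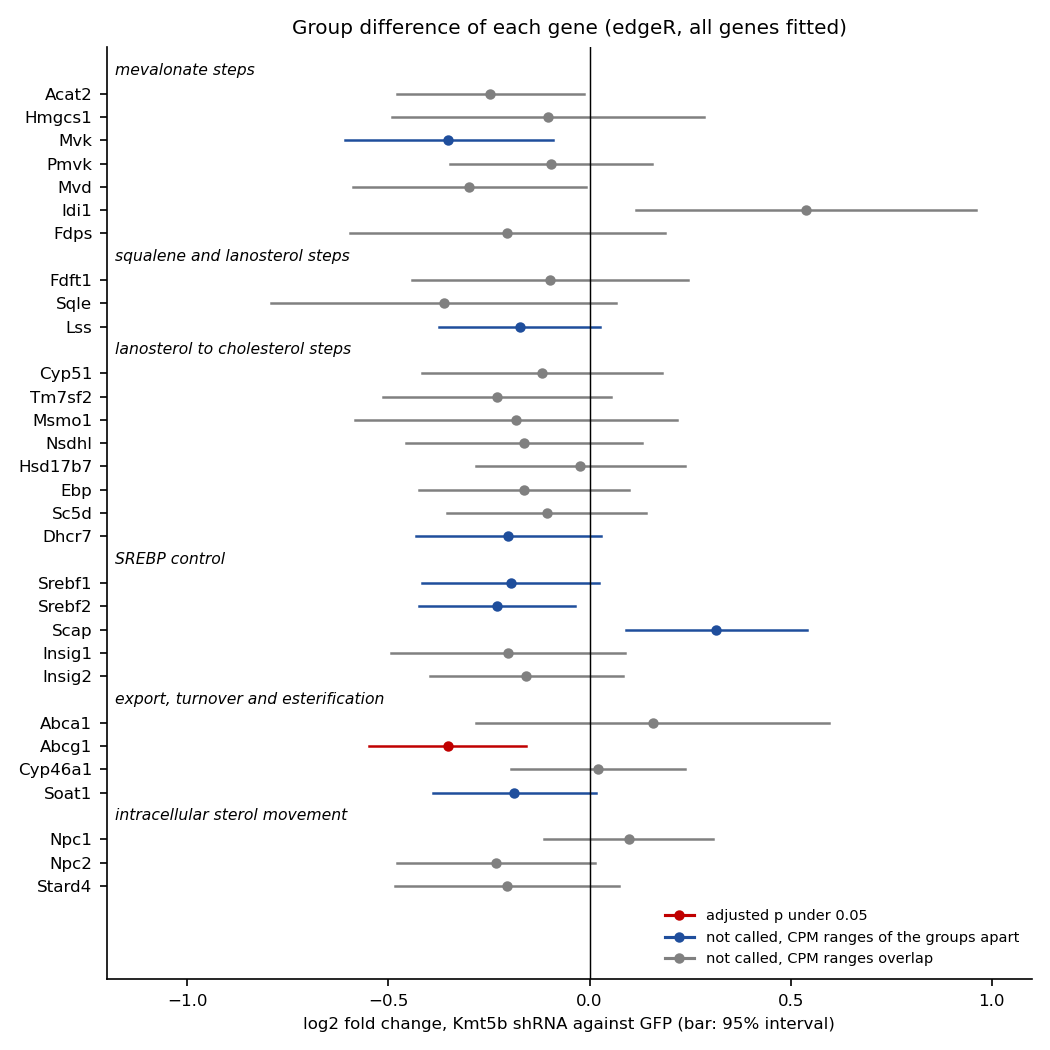
Log2 fold change of each gene, Kmt5b shRNA against GFP, with its 95% interval (x axis, log2 scale), for the 30 genes grouped by role. Abcg1 is the gene called at an adjusted p under 0.05; most other points lie left of 0 with intervals that cross it.

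Abcg1 encodes a membrane transporter that hands cellular cholesterol to lipoprotein particles. It lies on chromosome 17 from 31057675 to 31117988 (mm10). Its level was 83.0, 78.5 and 76.7 CPM in the GFP group and 60.0, 64.0 and 62.4 CPM in the Kmt5b shRNA libraries. All 3 Kmt5b shRNA libraries lay below all 3 GFP libraries. Abcg1 fell by 0.35 on the log2 scale (SE 0.09, edgeR adjusted p = 0.0219), an estimated change of -21.7% with a 95% interval from -31.6% to -10.4%. Its call was lost when GFP replicate 1 was left out (edgeR adjusted p = 0.0605), and likewise for replicates 1 (0.149) and 3 (0.0745) of the Kmt5b shRNA group. In a fit of protein-coding genes that share no sequence with other genes, where 0.187% of genes were lower, Abcg1 had -0.36 ± 0.08 and an edgeR adjusted p of 0.0619.

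The other genes of sterol disposal did not pass. Abca1, which loads cholesterol onto lipid-poor apolipoproteins, was at 92.7, 118.1 and 137.9 CPM in the GFP and at 126.6, 99.6 and 162.4 CPM in the Kmt5b shRNA libraries. The Abca1 values overlapped widely, with both the lowest in a GFP library and the highest in a Kmt5b shRNA library, and the log2 fold change was 0.16 ± 0.19 (edgeR adjusted p = 0.790). Cyp46a1, the neuronal cholesterol 24-hydroxylase, had nearly equal means of 115.1 ± 10.1 CPM (SD, n = 3) in the GFP and 116.7 ± 8.62 CPM in the Kmt5b shRNA libraries. The 95% interval of its change ran from -12.7% to 17.8%. Soat1, which esterifies cholesterol for storage, was at 61.8, 57.9 and 58.5 CPM against 54.5, 53.8 and 48.2 CPM. The Soat1 ranges did not overlap, but its edgeR adjusted p was 0.340 (log2 fold change -0.19 ± 0.09).

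Ranges of CPM that do not overlap between the groups were found in 8 of the 30 genes. Abcg1, Soat1, Mvk, Lss, Dhcr7, Srebf1 and Srebf2 lay lower in every Kmt5b shRNA library than in any GFP library, and Scap lay higher. Such a separation downward was seen in 12.7% of all genes tested and upward in 9.84%. Among the 15 members that share no sequence with other genes, 4 were separated downward and 1 upward in the fit of such genes alone, where the background was 9.78% and 10.5%. With Kmt5b shRNA replicate 2 left out, 17 of the 30 were separated downward, against 18.1% of all genes in that comparison of 3 with 2 libraries. Without GFP replicate 2, 13 of the 30 were, against 15.9% of all genes. Kmt5b shRNA replicate 2 was the highest of its group in 21 of the 30, and GFP replicate 2 the lowest of its group in 17. Leaving either out therefore raises the downward count by construction. Without GFP replicates 1 and 3 in turn, 7 and 8 were separated downward, against 19.1% and 17.3% of all genes. Without Kmt5b shRNA replicates 1 and 3 in turn, 7 were each time, against 16.6% and 17.7%. Fewer libraries make such a separation more frequent, so these counts are not set against the 7 seen with all libraries.

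**Figure D2:**
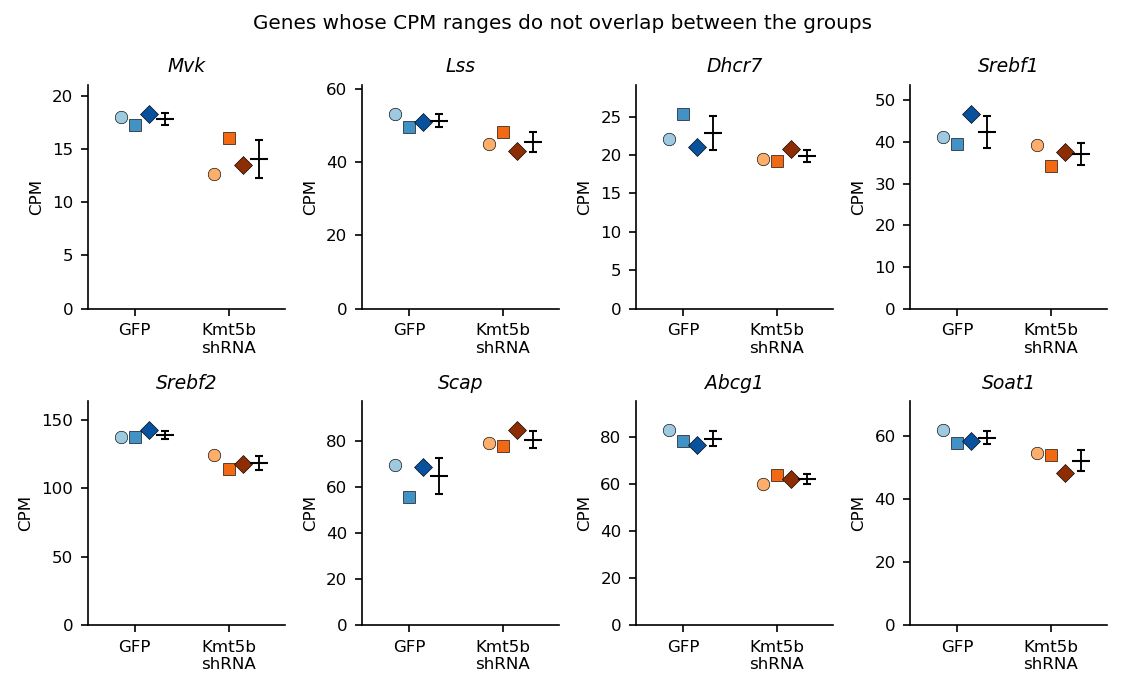
CPM (y axis, from 0) of the 8 genes whose ranges do not overlap between GFP and Kmt5b shRNA libraries. Each symbol is 1 library (replicate 1 circle, 2 square, 3 diamond), and the bar beside them is the mean with its SD (n = 3). Scap is higher in every Kmt5b shRNA library and the other 7 genes are lower.

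Within SREBP control, the escort and its cargo lay on opposite sides of 0. Scap was at 69.8, 55.7 and 68.9 CPM in the GFP group and at 79.2, 78.0 and 84.8 CPM in the Kmt5b shRNA libraries. Its log2 fold change was 0.31 ± 0.11 (edgeR adjusted p = 0.0936), and GFP replicate 2 stood lowest. Without that library the log2 fold change of Scap was 0.224 (edgeR adjusted p = 0.277). With any other library left out it ran from 0.287 to 0.373, with edgeR adjusted p from 0.0518 to 0.236. Srebf2, which encodes SREBP2, the main activator of cholesterol synthesis genes, was at 137.1, 137.6 and 142.3 CPM against 124.3, 113.9 and 117.4 CPM. The Srebf2 values were tight within each group, and the log2 fold change was -0.23 ± 0.09 (edgeR adjusted p = 0.176).

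Srebf1, which encodes the SREBP1 forms that act mostly on fatty acid genes, was at 41.1, 39.5 and 46.8 CPM against 39.4, 34.2 and 37.6 CPM. The nearest libraries of the Srebf1 groups differed by about the rounding of these values, and its edgeR adjusted p was 0.369. The sterol sensors Insig1 and Insig2 overlapped between the groups. Insig1, itself a target of SREBP, was at 101.8, 81.9 and 83.3 CPM against 68.7, 95.3 and 68.1 CPM, with Kmt5b shRNA replicate 2 above a pair of GFP libraries. Insig1 had a log2 fold change of -0.20 ± 0.14 and Insig2 one of -0.16 ± 0.11. None of the 5 regulators passed the edgeR test at an adjusted p under 0.05; at an unadjusted p under 0.05, 1 was below 0 and 1 above.

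The mevalonate steps hold 7 of the genes. Acat2, the thiolase that joins acetyl-CoA units, was at 42.4, 39.3 and 42.5 CPM in the GFP group and at 32.8, 40.2 and 31.9 CPM in the Kmt5b shRNA libraries, with replicate 2 of the latter inside the GFP range. Its log2 fold change was -0.25 ± 0.11 (edgeR adjusted p = 0.244), and it shares 1477 nucleotides of transcript with its neighbour Acat3. Hmgcs1, the HMG-CoA synthase, was at 354.1, 232.6 and 289.4 CPM against 245.3, 340.9 and 229.5 CPM. The spread of Hmgcs1 within each group was far wider than the difference between the group means, and its log2 fold change was -0.10 ± 0.18. Per kilobase of annotated exon, Hmgcs1 had the highest level of the 30 genes in the GFP libraries, at 63.6 CPM per kilobase, followed by Cyp46a1 at 35.0.

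Mvk, mevalonate kinase, was at 18.0, 17.2 and 18.3 CPM in the GFP group and at 12.6, 16.0 and 13.5 CPM in the Kmt5b shRNA libraries. The groups did not overlap, and the log2 fold change of -0.35 ± 0.12 had an edgeR adjusted p of 0.107. That p was 0.0386 without Kmt5b shRNA replicate 2 and up to 0.410 with another library left out. The kinase and decarboxylase that follow, Pmvk and Mvd, had log2 fold changes of -0.10 ± 0.12 and -0.30 ± 0.14 with overlapping ranges.

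Idi1 and Fdps, which make and join the isoprenoid units, carry a limit that comes from intronless copies elsewhere in the genome. Idi1, the isomerase, was the one synthesis enzyme above 0, at 9.79, 9.14 and 6.33 CPM in the GFP against 12.5, 14.8 and 9.21 CPM in the Kmt5b shRNA libraries (log2 fold change 0.54 ± 0.20, edgeR adjusted p = 0.138). That p was 0.0239 without Kmt5b shRNA replicate 3 and from 0.0781 to 0.426 with another library left out. In those other fits the log2 fold change of Idi1 ran from 0.362 to 0.671. Its 4 annotated copies held 6.68, 5.21 and 4.91 CPM in the GFP group and 0.422, 0.323 and 0.109 CPM in the Kmt5b shRNA libraries. Copies thus took 36.3% to 43.7% of the counts of Idi1 and its copies together in the GFP libraries, against 1.17% to 3.25% in the others. With the copies added, Idi1 had -0.18 ± 0.18 (edgeR adjusted p = 0.768), so its direction turned. Most of these counts belonged to the copy Gm13502 on chromosome 2 from 53696121 to 53696804.

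For Fdps, farnesyl diphosphate synthase, adding copies made a difference appear. Alone it was low, at 4.99, 4.49 and 4.69 CPM in the GFP and 3.85, 4.58 and 3.90 CPM in the Kmt5b shRNA libraries, and its log2 fold change was -0.20 ± 0.18 (edgeR adjusted p = 0.673). The 5 annotated Fdps copies held 17.6, 12.9 and 16.5 CPM in the GFP group and 3.88, 5.10 and 4.45 CPM in the Kmt5b shRNA libraries. Copies took 74.1% to 77.9% of the counts of Fdps and its copies together in the GFP libraries, against 50.2% to 53.3% in the Kmt5b shRNA libraries. With the copies added, Fdps was at 20.5 ± 2.73 CPM (SD, n = 3) against 8.54 ± 0.994 CPM, a log2 fold change of -1.27 ± 0.14 (edgeR adjusted p = 4.00e-05). The copy with most counts, Gm3571 on chromosome 10 from 93778660 to 93779719, was lower by itself at -1.98 ± 0.20 (edgeR adjusted p = 3.29e-06). The copies Gm5873 and Gm8163 were also lower, at -2.34 and -3.03. Gm7979 lay above 0, at 0.44 ± 0.36 (edgeR adjusted p = 0.633). The protein-coding model Gm43738 shares 1124 nucleotides with Fdps and overlaps its locus on chromosome 3. How reads that match several places or genes were counted is not given in the sources used here, so the level of Fdps in these tables is uncertain, with or without copies.

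**Figure D3:**
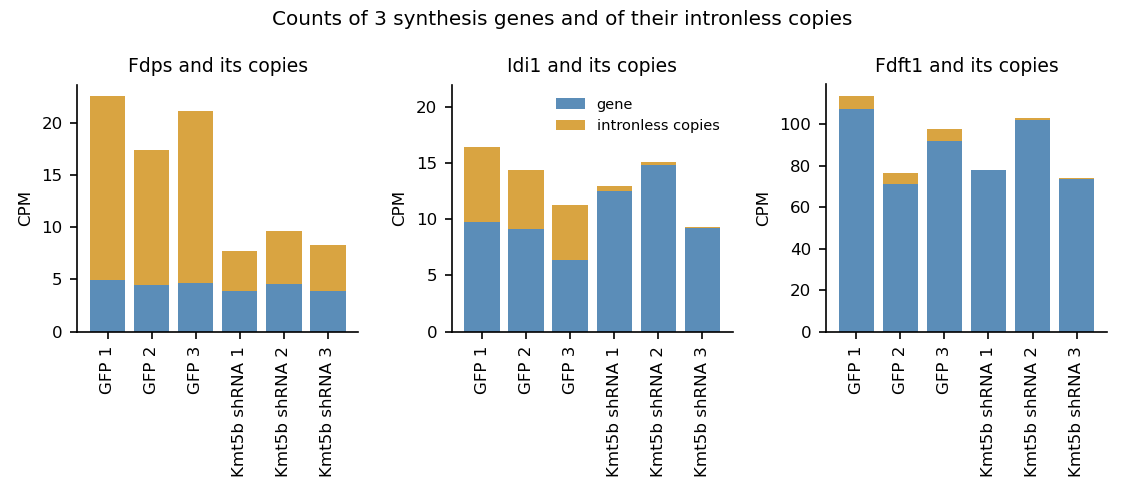
CPM (y axis, from 0) of Fdps, Idi1 and Fdft1 in each of the 6 libraries (x axis), with the counts of the gene in blue and those of its annotated intronless copies stacked in yellow. The copies take a large part of the counts in the GFP libraries for Fdps and Idi1 and a small part for Fdft1. In the Kmt5b shRNA libraries the copies still take a large part for Fdps, and a small part for Idi1 and Fdft1.

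The steps from farnesyl diphosphate to lanosterol had 0 of 3 genes called. Fdft1, squalene synthase, was at 107.3, 71.4 and 92.2 CPM against 77.8, 102.3 and 73.4 CPM, and Kmt5b shRNA replicate 2 lay between GFP replicates 1 and 3. Sqle, squalene epoxidase, a rate-controlling oxygen-dependent enzyme, was at 78.7, 53.9 and 70.0 CPM against 48.8, 67.4 and 41.8 CPM. Its log2 fold change was -0.36 ± 0.19 (edgeR adjusted p = 0.395), and without Kmt5b shRNA replicate 2 it was -0.58 ± 0.15 (edgeR adjusted p = 0.0318). With any other library left out, it ran from -0.493 to -0.211, with edgeR adjusted p from 0.155 to 0.666. Lss, lanosterol synthase, was at 53.3, 49.8 and 50.9 CPM against 45.1, 48.4 and 43.1 CPM, with groups apart and an edgeR adjusted p of 0.388. The Fdft1 copy Gm6781, on chromosome 14 from 18531363 to 18532604, was lower at -3.13 ± 0.27 (edgeR adjusted p = 5.53e-07). With it added, Fdft1 had -0.19 ± 0.15 (edgeR adjusted p = 0.706) in place of -0.10 ± 0.16 (0.846).

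From lanosterol to cholesterol, all 8 genes had log2 fold changes below 0, from -0.23 to -0.02, and 0 were called (edgeR; 0 of 8 at an unadjusted p under 0.05 as well, and 0 by DESeq2). Cyp51, the lanosterol demethylase, was at 105.4, 75.2 and 81.7 CPM against 73.7, 95.4 and 72.7 CPM. Msmo1, which oxidises the C4 methyl groups, was at 103.1, 66.7 and 82.7 CPM against 67.7, 92.3 and 62.8 CPM. Both genes had the same order of libraries within each group, with Kmt5b shRNA replicate 2 between the GFP libraries. The C4 decarboxylase Nsdhl and the ketoreductase Hsd17b7 had -0.16 ± 0.14 and -0.02 ± 0.12, and the reductase Tm7sf2 had -0.23 ± 0.13. The isomerase Ebp and the desaturase Sc5d, late enzymes of the pathway, had -0.16 ± 0.12 and -0.11 ± 0.12. Dhcr7, which reduces 7-dehydrocholesterol to cholesterol, was at 22.1, 25.4 and 21.1 CPM against 19.5, 19.3 and 20.8 CPM. It was the one synthesis enzyme in which Kmt5b shRNA replicate 2 was not the highest of its group.

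The synthesis enzymes moved together from library to library within the groups. Kmt5b shRNA replicate 2 held the highest value of its group in 17 of the 18 enzymes and in 35.8% of all genes tested, and GFP replicate 1 in 13 of 18 against 35.8%. This order was noticed in these data and is given as a description. The median over the 18 enzymes of the log2 ratio to the GFP mean was 0.13, -0.07 and -0.02 in GFP replicates 1 to 3 and -0.24, 0.02 and -0.30 in Kmt5b shRNA replicates 1 to 3. Replicate 2 of the Kmt5b shRNA group thus lay within the GFP range and the other two lay below it. It was also the Kmt5b shRNA library with the most Kmt5b, at 80.3 CPM; with 3 libraries a group, no relation between them was tested. Against the mean of the other two Kmt5b shRNA libraries, replicate 2 was higher by a median log2 ratio of 0.31 in the synthesis enzymes, from -0.06 to 0.57, and by -0.02 over all genes.

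**Figure D4:**
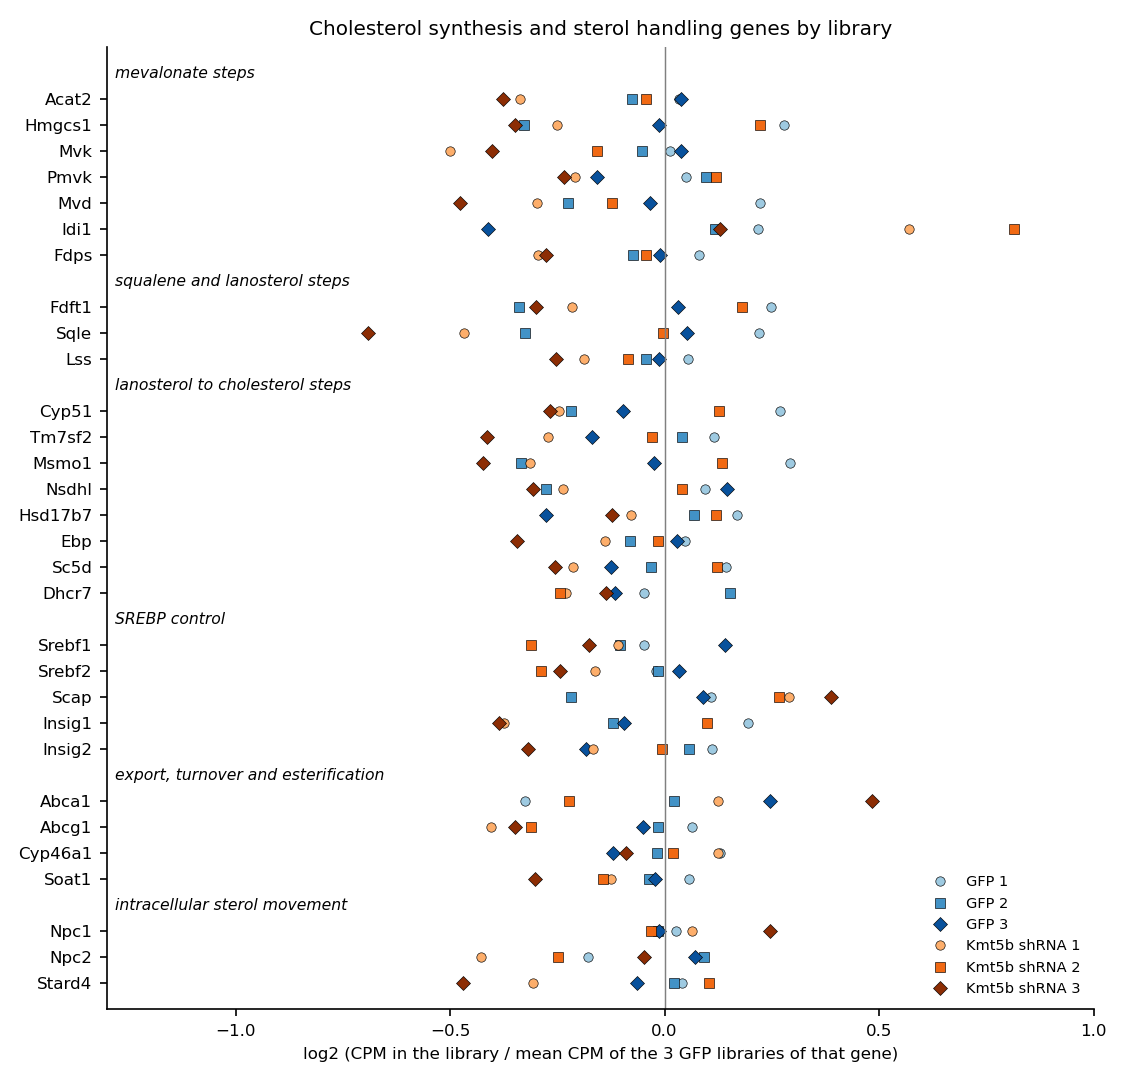
Log2 ratio of each gene's CPM in a library to its mean in the 3 GFP libraries (x axis), for the 30 genes by role (y axis); each symbol is 1 library. In the synthesis rows Kmt5b shRNA replicate 2 (orange square) sits right of the other two Kmt5b shRNA libraries in 17 of 18 genes, while in Srebf1, Srebf2 and Dhcr7 it sits furthest left.

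The regulators did not share that order. Kmt5b shRNA replicate 2 had the highest Insig1 and Insig2 of its group but the lowest Scap, Srebf1 and Srebf2. Stard4, a carrier of cholesterol through the cytosol that is itself under SREBP control, did follow the enzymes, at 26.2, 34.8 and 23.4 CPM in the Kmt5b shRNA libraries against 33.3, 32.9 and 31.0 CPM in the GFP libraries. Npc1 and Npc2, which pass cholesterol out of lysosomes, did not follow them. Npc1 was at 79.3 ± 1.33 CPM (SD, n = 3) in the GFP and 84.8 ± 8.37 CPM in the Kmt5b shRNA libraries, and Npc2 at 71.2 ± 7.19 against 60.6 ± 8.02 CPM. None of these 3 genes passed the edgeR test, with adjusted p of 0.493, 0.719 and 0.326 for Stard4, Npc1 and Npc2 and 0 of 3 at an unadjusted p under 0.05.

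Promoters are shown for 3 members: Hmgcs1, whose window holds letters that SREBP is known to bind, and Mvk and Srebf2, whose groups lay apart and whose windows hold only the letters bound by NF-Y, a partner of SREBP, of the 2 motifs marked. The windows run from 250 bases before to 50 after the annotated start (RefSeq, GRCm38.p6, plus strand), and 24 of the 30 genes had one. Capitals mark TCACNCCAC, a sterol response element, and CCAAT, the NF-Y box, searched on both strands, where CCAAT reads ATTGG on the other strand. Only exact matches were marked. The Srebf2 window holds tcaccccat, which departs from TCACNCCAC at its last letter and so was not counted. The windows lie at chr13:119690101-119690400 for Hmgcs1, chr5:114444019-114444318 for Mvk and chr15:82147019-82147318 for Srebf2.
Hmgcs1: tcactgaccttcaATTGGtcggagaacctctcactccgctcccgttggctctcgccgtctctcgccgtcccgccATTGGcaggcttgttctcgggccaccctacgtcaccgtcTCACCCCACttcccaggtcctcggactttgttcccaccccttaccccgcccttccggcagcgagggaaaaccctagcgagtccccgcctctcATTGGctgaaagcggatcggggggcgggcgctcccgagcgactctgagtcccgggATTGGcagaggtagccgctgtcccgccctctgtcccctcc
Mvk: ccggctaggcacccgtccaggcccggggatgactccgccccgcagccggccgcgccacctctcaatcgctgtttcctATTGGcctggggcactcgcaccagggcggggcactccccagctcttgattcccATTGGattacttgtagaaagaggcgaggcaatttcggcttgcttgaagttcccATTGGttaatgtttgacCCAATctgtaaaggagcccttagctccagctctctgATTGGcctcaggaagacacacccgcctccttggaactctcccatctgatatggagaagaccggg
Srebf2: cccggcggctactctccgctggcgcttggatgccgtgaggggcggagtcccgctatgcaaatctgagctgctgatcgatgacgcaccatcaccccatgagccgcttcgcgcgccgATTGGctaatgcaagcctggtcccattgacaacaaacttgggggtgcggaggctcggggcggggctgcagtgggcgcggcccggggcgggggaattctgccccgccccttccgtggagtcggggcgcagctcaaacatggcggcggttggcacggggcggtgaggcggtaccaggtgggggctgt

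The Hmgcs1 window held the sterol response element beginning 137 bases before the start, and CCAAT at 4 places. TCACNCCAC was found in 1 of the 24 genes, against 1.44% of all genes with a window and 1.24% of all 32851 promoter windows. A looser spelling, CACNCCAC, which the first contains, was found in 3 of 24, against 7.12% of all genes with a window and 6.24% of windows. CCAAT was found in 21 of the 24 genes, and in 14 of 15 synthesis enzymes with a window, against 37.4% of all windows and 41.1% of all genes with one. Mvk held it at 5 places. Because several members have more than 1 window, the share by gene is the closer comparison. The GC box GGGCGG was present in 23 of 24 genes against 38.2% of all genes and the E-box CACGTG in 6 of 24 against 8.09%. A match describes these letters and does not show that a factor binds there.

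Genes around the pathway were taken from lists chosen with earlier results of these data known. Of 12 fatty acid synthesis genes under SREBP1, 2 were higher and 0 lower, where 2.77% and 5.69% of all genes tested were. Their median log2 fold change was -0.04. Acaca, acetyl-CoA carboxylase, was at 94.2, 80.2 and 91.5 CPM in the GFP group and at 126.6, 131.1 and 115.6 CPM in the Kmt5b shRNA libraries (log2 fold change 0.49 ± 0.10, edgeR adjusted p = 0.00375). Me1, malic enzyme, which supplies NADPH, was higher by 0.51 ± 0.11 (edgeR adjusted p = 0.00482). With intronless copies added to their parents, Acaca had -0.022 (edgeR adjusted p = 0.962) and Me1 0.37 (edgeR adjusted p = 0.0989). As among the cholesterol enzymes, Kmt5b shRNA replicate 2 was the highest of its group in 10 of these 12 genes.

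Of 7 further genes of SREBP processing, such as the site proteases Mbtps1 and Mbtps2, 0 were called in either direction by edgeR and 1 lay above 0 at an unadjusted p under 0.05; the median was 0.13. Of 10 LXR receptors and targets, the sensors and effectors of sterol excess that include Abcg4 and Mylip, 0 were called, 4 lay below 0 at an unadjusted p under 0.05 (10.2% of all genes did), and the median was -0.08. None of 12 isoprenoid branch genes was called (0 at an unadjusted p under 0.05; median -0.02). DESeq2 called 0 genes in each of these 3 lists.

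Of 20 other sterol handling genes, 1 was higher and 2 were lower by edgeR, where 2.77% and 5.69% of all genes tested were. DESeq2 called these 3 and also Lcat, which esterifies cholesterol in lipoproteins and had an edgeR adjusted p of 0.0538 (log2 fold change -0.47 ± 0.14). Over all its genes, DESeq2 called 6.34%. Clu, an apolipoprotein made largely by astrocytes, was at 603.4, 717.8 and 642.8 CPM in the GFP and at 508.1, 486.0 and 421.0 CPM in the Kmt5b shRNA libraries (log2 fold change -0.47, edgeR adjusted p = 0.0107). Cyp27a1, the sterol 27-hydroxylase, was lower by a log2 fold change of -0.77 from 5.43 to 3.19 CPM on average (edgeR adjusted p = 0.0363), and Lrp8, a lipoprotein receptor of neurons, higher by 0.35 (edgeR adjusted p = 0.0272). The call was lost for Clu without GFP replicate 2 or Kmt5b shRNA replicate 3 (edgeR adjusted p 0.0647 and 0.0703). For Cyp27a1 it was lost without GFP replicates 2 and 3 and Kmt5b shRNA replicates 1 and 3 in turn (0.142, 0.141, 0.199 and 0.0946), and for Lrp8 without GFP replicates 1 and 3 and Kmt5b shRNA replicates 1 and 3 (0.0575, 0.105, 0.173 and 0.0610). With copies added, Lrp8 and Cyp27a1 had an edgeR adjusted p of 0.0821 and 0.0793, and among protein-coding genes Cyp27a1 had 0.0698. Among genes that share no sequence, Clu, Lrp8 and Cyp27a1 had 0.0619, 0.0959 and 0.120.

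Markers of the cells that make and use sterols varied between the libraries too. All 13 oligodendrocyte markers had log2 fold changes below 0 with a median of -0.41. By edgeR 0 were called, and 2 lay below 0 at an unadjusted p under 0.05 (10.2% of all genes tested did). DESeq2 called 1, Mog, against 6.34% of all its genes. The median log2 ratio of the 13 markers to the GFP mean was 0.26, -0.27 and -0.05 in the GFP group. It was -1.13, -0.27 and -0.06 in the Kmt5b shRNA libraries. The summed level of these markers ran from 3000.2 to 4624.0 CPM in the GFP and from 1663.6 to 3501.8 CPM in the Kmt5b shRNA libraries. Kmt5b shRNA replicate 1 was lowest in all 13, while the synthesis enzymes were lowest in replicate 3 in 15 of 18. Of 13 astrocyte markers 3 were lower (Aqp4, Gjb6 and Gja1), where 5.69% of all genes tested were. Of the 13, 11 lay below 0 and 2 above. Those above were Gfap (log2 fold change 0.39 ± 0.25, edgeR adjusted p = 0.545) and Fgfr3 (0.13 ± 0.09, edgeR adjusted p = 0.553). The 13 markers had library medians of 0.02, 0.03 and -0.03 against -0.12, -0.10 and -0.33. Their summed level ran from 5180.8 to 5296.3 CPM against 4429.9 to 5011.1 CPM. Of 11 neuron markers 0 were called by edgeR or DESeq2 and 1 lay above 0 at an unadjusted p under 0.05; the median was 0.01. The neuron markers were highest of their group in GFP replicate 1 in 9 of 11, in Kmt5b shRNA replicate 2 in 7 of 11, and lowest in Kmt5b shRNA replicate 3 in 8 of 11, libraries that also held those places in most synthesis enzymes. Their library medians were 0.15, -0.10 and -0.06 in the GFP group and 0.00, -0.01 and -0.13 in the Kmt5b shRNA group. Of 8 oligodendrocyte precursor, 10 microglia and 10 endothelial markers, 0 were called by either tool, with medians of 0.12, -0.01 and 0.03. No defining marker of these 3 cell types was at 0 in any library. The part of cell composition in the sterol gene values was not tested.

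**Figure D5:**
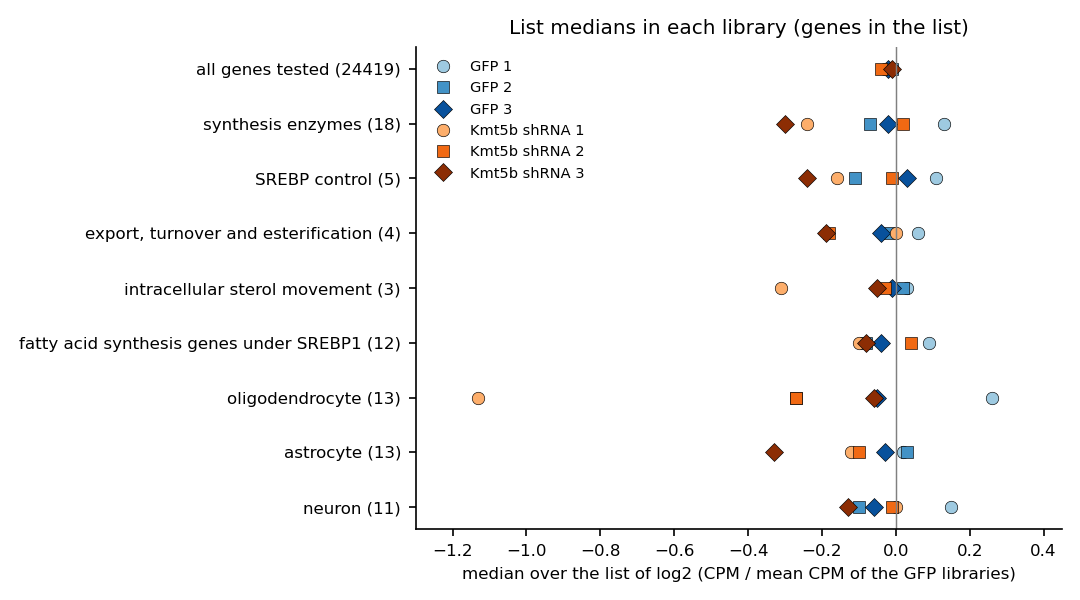
Median over each list of the log2 ratio of CPM to the GFP mean (x axis) in each of the 6 libraries, for the sterol gene roles, fatty acid genes, cell type markers and all genes tested (y axis, with the number of genes). In synthesis enzymes Kmt5b shRNA replicate 2 lies among the GFP libraries at 0.02, while in oligodendrocyte markers Kmt5b shRNA replicate 1 stands lowest at -1.13.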

How the data were processed

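Total RNA depleted of ribosomal RNA was sequenced from 6 libraries on an Illumina HiSeq. The deposited values are raw counts per gene, 1 table a library. Per the labels' protocols, reads were trimmed with Cutadapt and aligned with TopHat2 to RefSeq mRNAs, while the submitters' processing notes name STAR, featureCounts, DESeq2 and mm10; versions and the strand setting of counting are not given in the sources used here. Strand being unstated, Tm7sf2 with Vps51 and Cyp51 with Akap9, which overlap, are uncertain.

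Counts were fitted across all genes with edgeR 4.0.16 (filterByExpr, TMM scaling, robust quasi-likelihood test, GFP and Kmt5b shRNA libraries as the only term) in R 4.3.3, with Benjamini-Hochberg adjustment over 24419 genes and a threshold of 0.05. CPM uses TMM-scaled totals. SEs are the log2 fold change over the square root of F. The script was tested on simulated data. DESeq2 1.42.0, other scalings, filters and gene sets, a replicate block and leaving out each library were alternatives. Shared sequence was found with BLAST+ 2.17.0 (alignments of at least 90% identity and 100 nucleotides) between GENCODE M21 transcripts; genes count as sharing where these cover 200 nucleotides or 50% of the gene model, and the set sharing none holds protein-coding genes. Coordinates are mm10, 1-based, from GENCODE M21. The members and lists were chosen with earlier results of these data known. All 30 members are named; those called or with groups apart, and others that show the library pattern, are given by library, and of the other lists up to 2 called genes a direction. Correlations of same-numbered libraries were computed and cannot show whether these libraries were paired, so the main fit leaves pairing out.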

Additional observations from a re-analysis of the deposited data

How the results depend on the processing

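Relative to 2066 genes called (676 higher, 1390 lower), 60 (41 higher, 19 lower) were called among genes sharing no sequence, which is 0.59% of that set against 8.46% of all genes, 603 (295 higher, 308 lower) with copies added to parents, and 655 (184 lower) among protein-coding genes. Members called numbered 4 of 30 with no low-count filter, against 7.41% of all genes, and 2 of 30 with copies added, against 2.66%. Among genes sharing no sequence 0 of 15 were called, against 0.59%. When each library was left out, 0 to 3 of 30 were, against 6.72% to 9.23%. With the replicate number as a block, 2 members and 2211 genes (9.05% of all genes) were called. Same-numbered libraries had deviations correlated at -0.034, -0.01 and 0.218, and the other pairs at -0.203 to 0.21. Deviations within a group of 3 cancel out, so these values cannot show whether same-numbered libraries were paired. With copies added, the log2 fold changes of Idi1 and Acaca turned to -0.183 and -0.022. Leaving out each library in turn, the log2 fold change ran from -0.299 to 0.061 for Hmgcs1, from -0.258 to 0.046 for Fdft1, from -0.257 to 0.041 for Cyp51, from -0.145 to 0.074 for Hsd17b7, from -0.030 to 0.315 for Abca1 and from -0.037 to 0.092 for Cyp46a1. The sign turned without GFP replicate 1 (Hmgcs1, Fdft1, Cyp51, Hsd17b7), GFP replicate 2 (Hsd17b7), GFP replicate 3 (Cyp46a1), Kmt5b shRNA replicate 1 (Hsd17b7, Cyp46a1) or Kmt5b shRNA replicate 3 (Hmgcs1, Fdft1, Hsd17b7, Abca1). Members with groups apart downward, counted after seeing the data, numbered 6 with DESeq2, RLE scaling or no low-count filter. Of all genes, 9.69%, 12% and 10.1% were apart downward in these fits. With upper-quartile scaling or protein-coding genes they numbered 9, against 13.8% and 10.2% of all genes. They numbered 8 with copies added, against 9.32%, and 4 of 15 among genes sharing no sequence, against 9.78%. Leaving out each library gave 7 to 17, against 15.9% to 19.1% of all genes. Upward, 1 to 2 lay apart, against 12.8% to 16.9%. The cause of these changes was not tested. With 3 libraries a group, differences of the size seen for most of these enzymes lie within the spread between libraries. The 29490771 counts of GFP replicate 2 limit the precision of that library most.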
